A study of Mus musculus with 85 samples.

Results

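Connexins are the subunits of gap junctions, and 4 of them are known from the vessel wall: Gja4 (connexin 37), Gja5 (connexin 40), Gja1 (connexin 43) and Gjc1 (connexin 45). These 4 genes were taken by symbol, with every probe set that carries the symbol, from the 18194 genes named on the array. They have 10 probe sets: 1 for Gja4 (1416255_at), 1 for Gja5 (1422192_at), 6 for Gja1 and 2 for Gjc1. Their values were read in 85 single mouse cells, each hybridised to an Affymetrix whole-genome array of its own.

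The cells came from 5 sorted populations. The 7 endothelial cells (EC) and the 7 hemogenic endothelial cells (HEC), the endothelium that gives rise to blood, came from the caudal part of embryonic day (E) 10.5 embryos that carry eR1-GFP, a Runx1 enhancer that drives GFP. Both were CD31-positive and negative for Ter119, CD45 and CD41. EC were GFP-negative and HEC GFP-positive, so HEC are defined by the activity of that enhancer and not by a test of blood output. Cluster cells, blood cells attached to the aortic wall, were taken from wild-type embryos by a gate on cells with CD31, CD45 and c-Kit and without SSEA1. They came from the E10.5 caudal part (28 cells) and from the E12.5 aorta-gonad-mesonephros region (16 cells). From the fetal liver of wild-type E14.5 embryos came hematopoietic stem cells (HSC), gated as carrying c-Kit, Sca-1, Mac-1 and CD150 and lacking CD48 and lineage markers. Collagenase was used to dissociate the tissues.

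A connexin protein spans the membrane, assembles into a hemichannel and docks with the hemichannel of a neighbouring cell, which lets ions and small molecules pass between them. Connexin 37 and connexin 40 are known from arterial endothelium, connexin 43 is widely expressed in endothelium, smooth muscle and many other cells, and connexin 45 is known from early vessels, the developing heart and smooth muscle. Endothelial cells can form channels that mix several of these proteins.

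The values are log2 expression values, and one over 5 is called above background here. Values at the floor lie near 2.3. On the brightest probe set of each gene, few connexin values fall close to the limit. There, between 4 and 6 lie 1 value of Gja4, 1 of Gja5, 2 of Gja1 and 1 of Gjc1. Other Gja1 probe sets also held values in that range, such as 5.44 on 1415800_at in EC and 4.74 on 1438973_x_at in HEC. Fetal liver HSC cells 20 and 21 were nearly identical over all probe sets (r = 0.991, with 0.859 for the next closest pair of arrays) and were averaged, which left 84 cells, 26 of them HSC. The number of probe sets above background per cell ran from 3908 to 8308 in EC, 6670 to 9065 in HEC, 8244 to 11487 in E10.5 clusters, 4137 to 11079 in E12.5 clusters and 4750 to 8489 in HSC. EC cell 3, HSC cells 5 and 7 and cells 3, 6 and 10 of the E12.5 clusters held marker genes that go against their sort. EC cell 3 had 2 of 20 pan-endothelial genes above background, where the other 6 EC had 12 to 18, and expressed Dppa3 (14.59) and Pou5f1 (13.96), genes of germ cells. HSC cells 5 and 7 had 0 and 1 of 12 blood genes and 5 of 7 sinusoidal endothelial genes each, where the other 24 HSC had 6 to 12 and 0 to 2. Those 3 E12.5 cells each had 9 of 9 macrophage genes, and none of them held a connexin above background.

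Labels name no animal, litter or culture. Each population therefore counts as 1 sample, no test between populations was possible, and no p-value is given. Differences are between mean log2 values over cells, and a gene is called higher or lower at 1 log2 unit or more. Each SD describes the spread from cell to cell. Intervals on shares of cells are exact Clopper-Pearson 95% intervals that cover counting error over cells only. EC and HEC share genotype, stage and tissue and differ in the GFP gate. Between E10.5 and E12.5 clusters the stage and the dissected region differ, with 1 gate for both. The comparisons of cluster cells or HSC with HEC also differ in genotype and gate, and those of HSC with HEC in stage and organ too. HSC differ from either cluster population in gate, stage and organ. None of these can be told apart from cell identity. Brightness is not comparable between probe sets, so each gene is compared only with itself.

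The promoters of the 2 connexins known from arteries, Gja4 and Gja5, are shown with that of the broadly expressed Gja1, because sequences were at hand for these 3 genes. RefSeq sequences of the 250 bases before the transcription start were found for 3 of the 4 genes, in build GRCm38.p6: Gja4 at chr4:127314040-127314289 on the minus strand, Gja5 at chr3:97032152-97032401 on the plus strand and Gja1 at chr10:56377050-56377299 on the plus strand. Gjc1 was the member with no entry. Capitals mark the motif letters described after the sequences.
Gja4: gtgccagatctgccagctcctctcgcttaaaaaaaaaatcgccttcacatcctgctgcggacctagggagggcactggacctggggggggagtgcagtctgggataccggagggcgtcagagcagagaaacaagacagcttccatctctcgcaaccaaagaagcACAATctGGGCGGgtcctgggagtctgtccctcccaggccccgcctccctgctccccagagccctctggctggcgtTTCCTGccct
Gja5: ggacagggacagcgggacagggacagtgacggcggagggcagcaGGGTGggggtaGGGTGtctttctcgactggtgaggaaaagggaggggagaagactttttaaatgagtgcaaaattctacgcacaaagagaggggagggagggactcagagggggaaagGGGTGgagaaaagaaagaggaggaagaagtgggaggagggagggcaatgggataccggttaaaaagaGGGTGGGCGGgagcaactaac
Gja1: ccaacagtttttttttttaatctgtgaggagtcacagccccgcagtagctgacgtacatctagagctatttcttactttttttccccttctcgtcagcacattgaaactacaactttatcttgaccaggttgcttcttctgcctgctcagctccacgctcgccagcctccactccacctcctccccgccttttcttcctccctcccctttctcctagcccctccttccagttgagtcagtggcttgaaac

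The motifs searched, on both strands, were TGGGAA (RBPJ, the DNA-binding partner of Notch), ACAAT (SOX factors), CAGGAA (ETS factors), CACCC (KLF factors), AGGTGT (T-box factors), GGGCGG (the GC box) and TATAAA (the TATA box). The Gja4 promoter held 1 SOX match, from -86 to -82 relative to the start, 1 GC box from -79 to -74 and 1 ETS match on the opposite strand from -10 to -5. Of 32851 promoters of this length in the table, 27.7% held the SOX letters, 32.7% the GC box and 25.7% the ETS letters. The Gja5 promoter held 4 KLF matches, each on the opposite strand, beginning at -206, -195, -88 and -21, where 52.0% of promoters held at least 1. The last of them shares a base with a GC box from -17 to -12. No letters of the 7 motifs were found in the Gja1 window. RBPJ, T-box and TATA letters, held by 21.6%, 11.8% and 12.4% of promoters, were in none of the 3 windows. G and C made up 61.2% of the bases for Gja4, 56.4% for Gja5 and 50% for Gja1, with a median of 52.4% over the table. A match describes letters in this window and is not a binding site.

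Gja4, the arterial connexin 37, was found in nearly every HEC and in few other cells. In HEC cells 1 to 7 its values were 14.61, 11.70, 2.31, 12.72, 14.21, 12.12 and 13.72. In EC cells 1 to 7 they were 2.35, 6.39, 2.32, 2.38, 2.41, 2.37 and 2.34. HEC cell 3 was therefore at the floor among bright cells, EC cell 2 was the one EC above background, and those cells make the populations overlap. Gja4 was above background in 6 of 7 HEC (85.7%, interval 42.1 to 99.6%) and in 1 of 7 EC (14.3%, interval 0.36 to 57.9%). Its mean was 11.63 ± 4.25 (SD, n = 7 cells) in HEC and 2.94 ± 1.52 in EC, a difference of 8.69. Of the 10695 genes measured, 45.9% were higher in HEC by 1 log2 unit or more and the median over those genes was 0.82, and Gja4 ranked 1st among them from the top. The share of genes on each side depends on the scaling of the arrays: it was 45.9% higher and 7.36% lower as deposited, 26.6% and 30.6% with an equal median signal in every cell, and 25.5% and 21.6% after quantile normalization. Gja4 was higher by 7.71 and 8.04 under those scalings.

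In blood cells Gja4 was sparse and dimmer. It passed the limit in 3 of 28 cells of E10.5 clusters (10.7%, interval 2.27 to 28.2%), with 7.89 in cell 9, 8.38 in cell 17 and 5.66 in cell 26. It was in 0 of 16 cells of E12.5 clusters (up to 20.6%) and in 1 of 26 HSC (3.85%, interval 0.10 to 19.6%), with 8.94 in cell 4. No blood cell reached the lowest of the 6 HEC above background, at 11.70. The means were 2.82 ± 1.63 in E10.5 clusters (n = 28), 2.32 ± 0.03 in E12.5 clusters (n = 16) and 2.59 ± 1.29 in HSC (n = 26). Gja4 was lower by 8.80 in E10.5 cluster cells than in HEC, where 15.7% of genes were lower and 43.1% higher by 1 or more and the median of all genes was 0.71. With an equal median signal those shares were 11.5% and 56.0%, and after quantile normalization 22.7% and 27.9%. HSC minus HEC gave -9.03, against 39.4% of genes lower and 14.3% higher by 1 or more and a median of -0.51. Both comparisons use the same 7 HEC. In order of mean level HEC came first, and EC, E10.5 cluster cells, HSC and E12.5 clusters followed within 1 SD of their neighbours.

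Gja5, connexin 40, was above background in 3 HEC and in no cell of the other populations. HEC cells 1 to 7 had 2.34, 8.60, 2.31, 2.35, 5.15, 2.33 and 9.86. Cells 2, 5 and 7 were above background (42.9%, interval 9.90 to 81.6%), cell 5 barely so, and the other 4 HEC were at the floor. Every cell of the other 4 populations was at the floor: 0 of 7 EC (up to 41.0%), 0 of 28 cells of E10.5 clusters (up to 12.3%), 0 of 16 cells of E12.5 clusters (up to 20.6%) and 0 of 26 HSC (up to 13.2%). The HEC mean was 4.71 ± 3.28 (n = 7) against 2.37 ± 0.03 in EC, a difference of 2.34, and of 1.36 with an equal median signal. Against HEC it gave -2.42 in E10.5 cluster cells and -2.37 in HSC. The median HEC cell lies at the floor, and the difference of medians was -0.019. The gene counts as measured through those 3 HEC alone, so its direction follows from that filter. Between populations at the floor no difference is given.

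**Figure D1:**
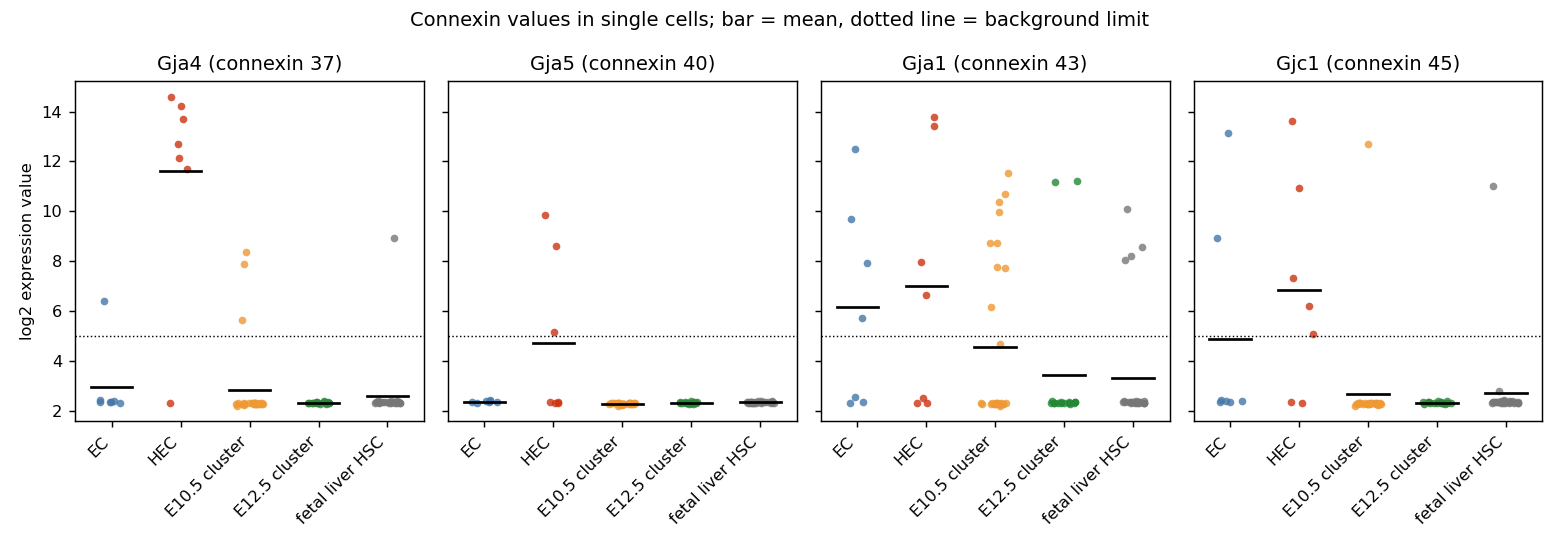
Log2 expression value (y axis) of each connexin in each of 84 cells, by population (x axis), with 1 panel a gene; points are cells, bars are means over cells and the dotted line is the background limit of 5. Gja4 is above the limit in 6 of 7 HEC, Gja5 in 3 HEC and no other cell, Gja1 in cells of every population, and Gjc1 in 5 of 7 HEC; levels of different genes cannot be compared.

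Gja1, connexin 43, was the most widely found member and had similar counts in EC and HEC. HEC cells 1 to 7 had 7.98, 2.53, 13.78, 6.65, 13.44, 2.33 and 2.32, and EC cells 1 to 7 had 12.51, 7.94, 2.32, 5.73, 2.53, 9.69 and 2.34. High and floor values were mixed in both populations. It was above background in 4 cells of either population (57.1%, interval 18.4 to 90.1% for each). The means were 6.15 ± 4.05 in EC and 7.004 ± 5.04 in HEC, and the difference of 0.85 is below the size for a call. Without HEC cell 3 it was -0.28, and without EC cell 1 it was 1.91, and it was -0.12 with equal median signals and -0.078 under quantile normalization, so the data give no direction.

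Among blood cells Gja1 was found in 9 of 28 cells of E10.5 clusters (32.1%, interval 15.9 to 52.4%), 2 of 16 cells of E12.5 clusters (12.5%, interval 1.55 to 38.3%) and 4 of 26 HSC (15.4%, interval 4.36 to 34.9%). The 9 E10.5 cluster cells ran from 6.17 in cell 6 to 11.52 in cell 4. Cells 4 and 12 of the E12.5 clusters had 11.20 and 11.17. HSC cells 1, 5, 16 and 17 had 8.58, 10.07, 8.04 and 8.21. The brightest, cell 5, is one of the cells with sinusoidal endothelial genes and held 0 of 12 blood genes. Without the cells whose markers go against their sort, Gja1 was in 3 HSC. Cells at the floor were the majority in each blood population. The means were 4.55 ± 3.34 in E10.5 clusters, 3.43 ± 3.03 in E12.5 clusters and 3.32 ± 2.37 in HSC. E10.5 cluster minus HEC gave -2.45, where 15.7% of all genes were lower and 43.1% higher by 1 or more. HSC minus HEC gave -3.68, where 39.4% were lower and 14.3% higher. In turn they gave -0.72 and -0.87 on 1438973_x_at and -0.098 and -0.050 on 1415801_at, so both calls were lost on those probe sets. E12.5 minus E10.5 cluster cells gave -1.12, in a comparison where 39.9% of genes were lower and 5.47% higher by 1 or more and the median of all genes was -0.66. That call was lost without any 1 of E10.5 cluster cells 4, 9, 16, 23, 24 and 25, with a lowest size of -0.86 without cell 4. HSC minus E10.5 cluster cells gave -1.23, where 55.5% of genes were lower and 5.01% higher by 1 or more, and -0.97 without E10.5 cluster cell 4. That call was also lost after quantile normalization (-0.79), on the mean of probe sets (-0.80), on 1438650_x_at (-0.90), on 1438973_x_at (-0.15), on 1415801_at and with medians over cells. HSC minus E12.5 clusters gave -0.11, in a comparison where 36.9% of genes were lower and 7.91% higher by 1 or more. In order of mean, HEC, EC, E10.5 cluster cells, E12.5 clusters and HSC each lay within 1 SD of the next.

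The 6 Gja1 probe sets did not report alike. Values above are from 1437992_x_at, the brightest probe set on average. Over 84 cells 1438945_x_at followed it at r = 0.998 and was above background in the same 23 cells, 1438650_x_at at 0.989 with 21 of them, and 1415800_at at 0.953 with 20. The last was also above background in E10.5 clusters 12 and 21, so 11 of 28 cells of E10.5 clusters were positive on at least 1 probe set. Probe set 1438973_x_at varied with the others (r = 0.807) but stayed below 5 in every cell, and 1415801_at stayed near the floor (r = -0.13). These last probe sets would report Gja1 as undetected in all 84 cells. The suffix _x_at marks a probe set with probes that may match other transcripts, and the cause of the disagreement was not tested.

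**Figure D2:**
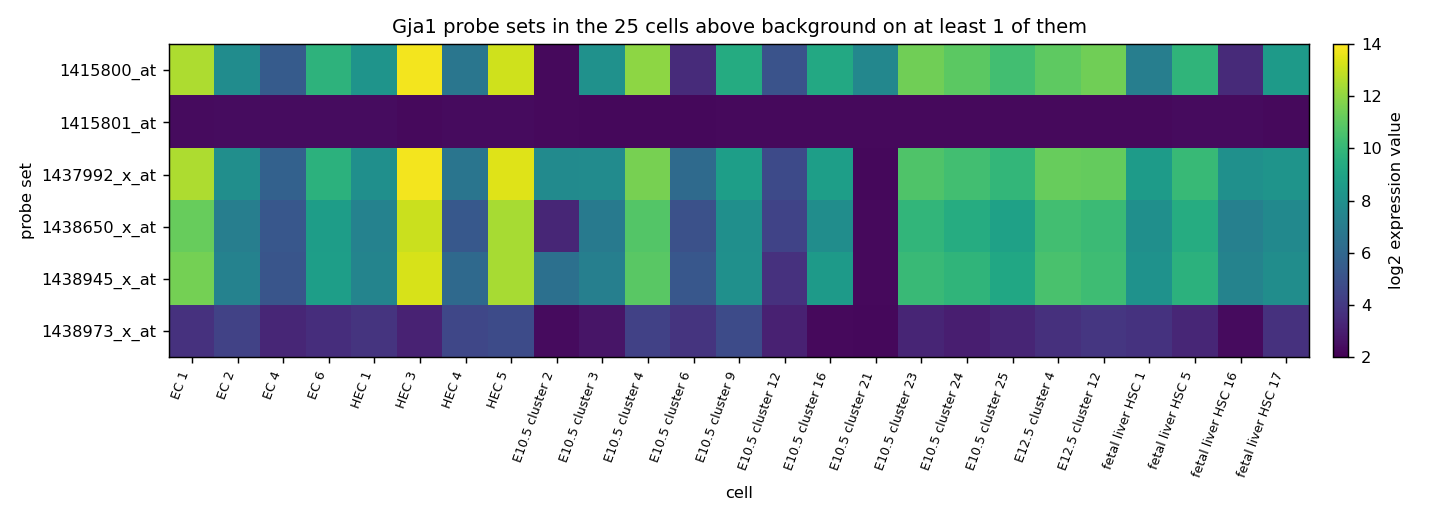
Log2 expression value (colour) of the 6 Gja1 probe sets (rows) in the 25 cells above background on at least 1 of them (columns, by population and cell number). The 4 probe sets 1415800_at, 1437992_x_at, 1438650_x_at and 1438945_x_at light up in largely the same cells, while 1415801_at and 1438973_x_at stay below the limit of 5 in each.

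Gjc1, connexin 45, was found in more HEC than EC, with the brightest cell of each population carrying much of the mean. HEC cells 1 to 7 had 6.19, 5.08, 13.63, 7.33, 2.33, 2.33 and 10.95 on probe set 1449094_at. EC cells 1 to 7 had 2.35, 2.39, 13.16, 2.38, 2.41, 2.37 and 8.94. The brightest EC value belongs to cell 3, which held germ-cell genes and lacked most endothelial ones, and HEC cell 2 lies just above the limit. Gjc1 was above background in 5 of 7 HEC (71.4%, interval 29.0 to 96.3%) and 2 of 7 EC (28.6%, interval 3.67 to 71.0%), or 1 of 6 EC without cell 3. The means were 6.83 ± 4.23 and 4.86 ± 4.40, a difference of 1.98. It was 0.84 without HEC cell 3, 3.36 without EC cell 3 and 1.002 with an equal median signal. On the other probe set, 1447787_x_at, 2 HEC (cells 3 and 7) and 2 EC (cells 3 and 7) were above background, and the difference was 0.49. Probe sets above background per cell and Gjc1 correlated at r = 0.64 over the 14 EC and HEC, against 0.33 for Gja4 and 0.11 for Gja1, and the part of depth in the Gjc1 difference was not tested.

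In blood cells Gjc1 was nearly absent. It passed the limit in 1 of 28 cells of E10.5 clusters (cell 12, 12.70), 0 of 16 cells of E12.5 clusters and 1 of 26 HSC (cell 7, 11.01). Those single cells were bright on 1449094_at, while the remaining blood cells stayed below 3. On the other probe set, 1447787_x_at, neither was above background. There 0 of 28 cells of E10.5 clusters (highest 2.44) and 0 of 26 HSC (highest 2.96) passed the limit. HSC cell 7 is one of the cells with sinusoidal endothelial genes and few blood genes. The means were 2.66 ± 1.97, 2.32 ± 0.04 and 2.69 ± 1.70. E10.5 cluster minus HEC gave -4.18 and HSC minus HEC gave -4.14. By mean level HEC and EC came first and lay within 1 SD of each other, and the 3 blood populations followed near the floor.

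Every HEC held at least 1 of the 4 connexins, and most held several. HEC cells 1 and 4 held Gja4, Gja1 and Gjc1, cells 2 and 7 held Gja4, Gja5 and Gjc1, cell 5 held Gja4, Gja5 and Gja1, cell 3 held Gja1 and Gjc1 and cell 6 held Gja4 alone. Each Gja5 cell also held Gja4, and no cell held all 4. At least 2 connexins were found in 6 of 7 HEC, 1 of 7 EC, 1 of 28 cells of E10.5 clusters, 0 of 16 cells of E12.5 clusters and 0 of 26 HSC. Among EC, 3 held Gja1 alone, cell 2 held Gja4 and Gja1, 2 held Gjc1 alone and cell 5 held none. No EC held Gja1 and Gjc1 together, while 3 HEC did, with Gjc1 read on 1449094_at. On the other Gjc1 probe set, 1447787_x_at, HEC cell 3 was the only HEC with both, since cell 7 had Gja1 at 2.32. The EC with Gjc1 include cell 3, which lacked most endothelial genes. None of the 4 was found in 16 of 28 cells of E10.5 clusters, 14 of 16 cells of E12.5 clusters and 20 of 26 HSC.

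**Figure D3:**
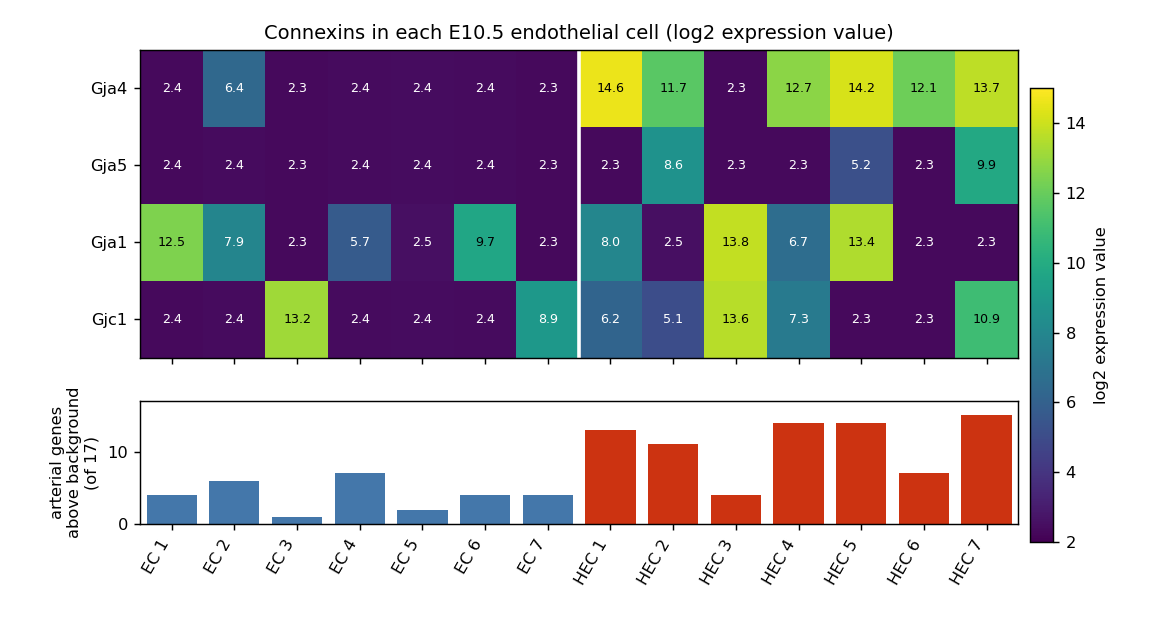
Upper panel, log2 expression value (colour and printed number) of the 4 connexins (rows) in each EC and HEC (columns). Lower panel, number of 17 arterial genes above background in the same cell (bars); it is 1 to 7 in EC and 4 to 15 in HEC, and HEC cell 3, with 4, is the HEC that has Gja4 at the floor. Of the 17 genes, 6 count as measured through HEC alone.

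Gja4 went with arterial genes over the cells, though not in every cell, and the other members did so less closely. The 20 arterial genes on the list included the Notch ligand Dll4, the ephrin Efnb2 and the Notch targets Hey1 and Hey2, and 17 were measured. Of the 17, 6 count as measured through HEC alone, so part of the gap in counts between HEC and EC follows from that filter. HEC cells 1 to 7 had 13, 11, 4, 14, 14, 7 and 15 of them above background, and EC cells 1 to 7 had 4, 6, 1, 7, 2, 4 and 4. The lowest HEC was cell 3, which lacked Gja4 and had the highest Gja1 and Gjc1 values of its population. It had 9065 probe sets above background, the most among HEC, and it held 17 of 20 pan-endothelial and 6 of 9 venous and lymphatic genes. HEC cell 6, with 7 arterial genes, kept Gja4 at 12.12. EC cell 4 also had 7, with Gja4 at the floor (2.38). HSC cell 5, a cell with sinusoidal endothelial genes, had 7 as well, with Gja4 at 2.34.

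Over 84 cells Gja4 and the mean of the arterial genes correlated at r = 0.86, over the 14 EC and HEC at 0.93 and within the 7 HEC at 0.83. Within HEC the same r was 0.46 for Gja5, -0.13 for Gja1 and -0.26 for Gjc1. These are descriptions over cells that share a sort and an array platform, with few points, and the HEC value for Gja4 leans on cell 3. The arterial mean includes 6 genes measured through HEC alone. The r over 84 cells and over the 14 EC and HEC therefore partly follows from that filter. Against the venous and lymphatic mean Gja4 gave r = 0.39 over all cells and -0.13 over EC and HEC. Against the number of probe sets above background it gave -0.06 over all cells and 0.33 over EC and HEC.

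**Figure D4:**
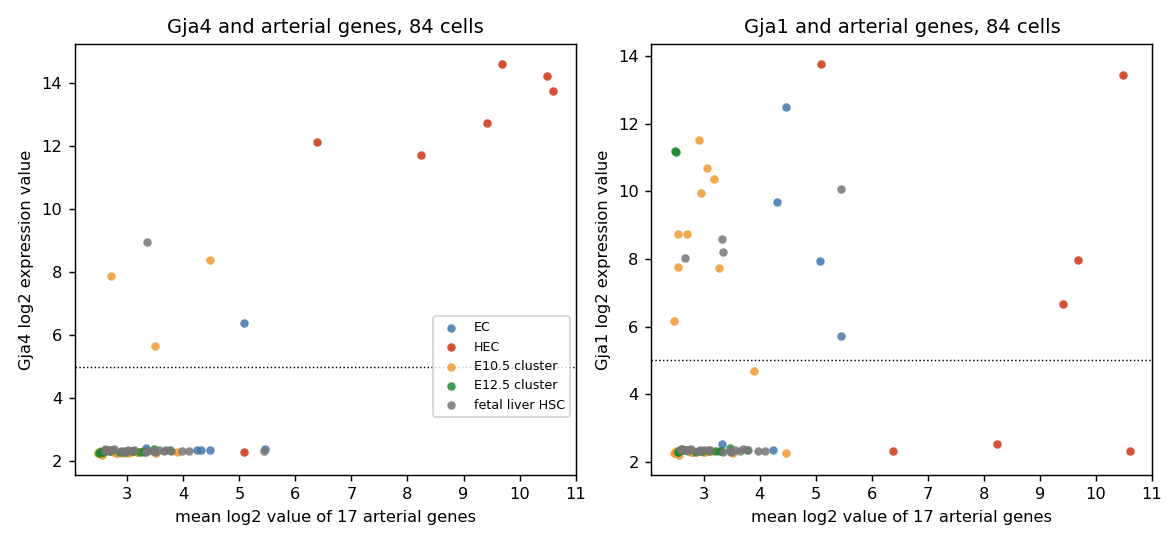
Mean log2 value of 17 arterial genes (x axis) against the log2 value of Gja4 (left) or Gja1 (right) in 84 cells coloured by population, with the background limit of 5 dotted. The 6 HEC with Gja4 lie to the upper right of the left panel and HEC cell 3 at its floor, while Gja1 is high at low and at high arterial means. Of the 17 arterial genes, 6 count as measured through HEC alone.

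The genes most like each connexin were taken by Pearson r over 84 cells among measured genes. For Gja4 they were Hey1 (0.83), Tmem100 (0.83), Unc5b (0.82), Stmn2 (0.77) and Hey2 (0.77). Hey1 and Hey2 are Notch-induced repressors, Unc5b a netrin receptor of arterial and tip endothelium, and Tmem100 a membrane protein of arterial endothelium. Each was found in few cells: Hey1 in 5 of 84, every one of them among the 11 Gja4 cells, as were the 5 Tmem100 and the 5 Unc5b cells. All 5 genes count as measured through HEC alone. They were chosen for a high r, so the shared cells follow from that choice. For Gjc1 they were Mb21d2 (0.73), Slc38a4 (0.70), Qpct (0.69), Iffo2 (0.67) and Adam19 (0.65). Mb21d2 and Qpct were each found in 4 cells, all among the 9 Gjc1 cells, which again follows from the choice by r. The Mb21d2 cells were 2 EC, 1 HEC and 1 HSC, so they include EC cell 3 and HSC cell 7. The Qpct cells were 3 HEC and 1 HSC, so they include HSC cell 7. Markers of EC cell 3 and HSC cell 7 go against their sort. No gene came close to Gja1: the highest was Cpe, at 0.50, followed by Ushbp1 (0.49), Abcc9 (0.46), Asap2 (0.46) and Igfbp2 (0.45). By rank correlation 2 of these 5 genes remained for Gja4, 2 for Gjc1 and 0 for Gja1. Gja5, found in 3 cells, was not examined this way.

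Among the blood cells, a few of those with Gja4 or Gjc1 were also those with the most endothelial genes. E10.5 cluster cell 17 (Gja4) had 16 of 20 pan-endothelial genes above background, the most of the 28, and cell 26 (Gja4) had 12, the next. Cell 12 (Gjc1) had 10, shared with others, and cell 9 (Gja4 and Gja1) had 7, the median of that population. In HSC, cell 7 (Gjc1) had 17 and cell 5 (Gja1) had 15, the highest of the 26, and those are the cells with 1 and 0 of 12 blood genes. HSC cell 4 (Gja4) had 8, against a median of 7.5. Gja1 cells of E10.5 clusters had 5 to 9 and those of E12.5 clusters 4 and 5, inside the range of the other cells. Each E10.5 cluster cell had at least 10 of 12 blood genes. The part of these other endothelial genes in the connexin counts was not tested.

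**Figure D5:**
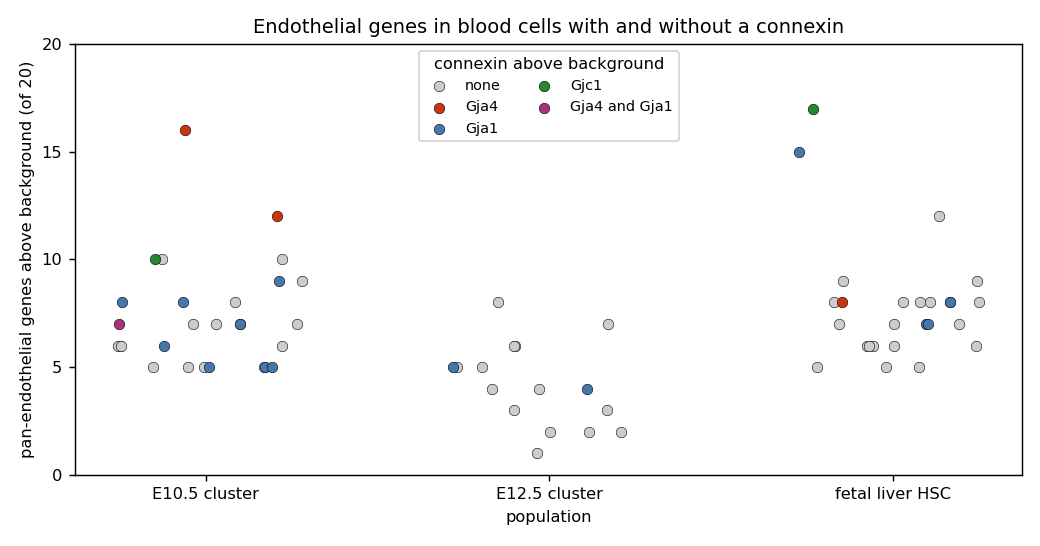
Number of 20 pan-endothelial genes above background (y axis) in each cell of the 3 blood populations (x axis); each point is a cell, coloured by which connexin is above background, with grey for none. E10.5 cluster cells 17 and 26 (Gja4, at 16 and 12) and HSC cells 7 and 5 (Gjc1 and Gja1, at 17 and 15) are the highest of their populations, while the other Gja1 cells lie among the grey ones.

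Few marker genes of other cells that use these connexins were measured. Of 16 mesenchymal and mural genes 2 were measured: Pdgfrb, in 0 EC, 0 HEC, 6 E10.5 cluster cells, 5 E12.5 clusters and 0 HSC, and Twist1, in 1 HEC, 3 E10.5 cluster cells and 1 E12.5 cluster cell. The mean of the pair ran from 2.32 to 2.41 over EC and 2.31 to 6.65 over HEC. It ran from 2.20 to 7.70 over E10.5 clusters, 2.28 to 7.96 over E12.5 clusters and 2.30 to 2.38 over HSC. Of E10.5 cluster cells with 1 of the pair, cells 2, 3, 16 and 25 held Gja1, cell 17 Gja4 and cell 9 both. Cells 5, 8 and 18 held no connexin. The E12.5 cluster cells with Gja1, 4 and 12, had neither gene of the pair. The contractile and pericyte genes Acta2, Tagln, Myh11, Cnn1, Des, Rgs5 and Cspg4 were above background in 0 of 84 cells. Of 8 cardiomyocyte genes 1 was measured, Tnni3. It was above background in 1 EC, 0 HEC, 6 E10.5 cluster cells, 0 of the E12.5 clusters and 3 HSC, and the EC was cell 2 (8.73), the EC with Gja4. Of the E10.5 cluster cells with Tnni3, cells 2 and 3 held Gja1, cell 17 held Gja4 and cells 13, 15 and 19 held no connexin. The HSC with Tnni3 were cells 12, 18 and 27, which held no connexin. The part of these markers in the connexin values was not tested.

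The rest of the connexin family was close to silent on these arrays. Of 16 other connexins 10 had probe sets, and none was measured: Gjb5 was above background in 1 HSC and the other 9 in 0 of 84 cells. Of the pannexins, which form channels without joining cells, Panx2 and Panx3 were found in 0 cells. Panx1 was found in 1 EC and 1 HEC of 7 each, 21 of 28 cells of E10.5 clusters, 9 of 16 cells of E12.5 clusters and 4 of 26 HSC. Its means were 3.66 ± 2.01 in EC, 4.03 ± 3.03 in HEC and 7.45 ± 3.11 in E10.5 clusters, a difference of 3.43 between the last populations, where 43.1% of all genes were higher. It was 1.596 after quantile normalization. Panx1 thus had the opposite order from the 4 connexins between HEC and E10.5 clusters.

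Of 13 proteins that bind or carry connexins, 11 were measured, and 7 were higher in HEC than in EC and 0 lower, where 45.9% of all genes were higher and 7.36% lower. The median difference was 1.52, against 0.82 over all genes, and it was 0.54 with 5 higher and 3 lower under an equal median signal and 0.42 with 5 higher and 2 lower after quantile normalization. Cav1, which encodes caveolin-1 of the membrane invaginations, was in 6 of 7 HEC and 2 of 7 EC with a difference of 5.99. Tsg101, an endosomal sorting protein, differed by 3.82, Tjp1, the scaffold ZO-1 that binds connexin tails, by 2.79 and the kinase Src by 2.46. In E10.5 cluster cells 7 of the 11 were lower than in HEC and 3 higher, with a median of -1.30, where 15.7% of all genes were lower and 43.1% higher. The median was -0.79, with 5 lower and 3 higher, under an equal median signal, and -0.91 with medians over cells, so it did not reach 1 log2 unit in either. Tjp1 was in 5 of 28 cluster cells with a difference of -8.99, and Cav1 in 0 of 28 with -8.38. Cdh2 (N-cadherin) gave -4.10 and Dbn1 (drebrin) -4.03, while the membrane linker Ezr (ezrin) was higher, at 2.91. Against HEC, 9 of the 11 were lower in HSC and 1 higher, where 39.4% of all genes were lower and 14.3% higher.

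Of 22 regulators linked to vascular connexins, 16 were measured. From EC to HEC 13 were higher and 0 lower, where 45.9% of all genes were higher and 7.36% lower. Their median was 3.08, against 0.82 over all genes, and it was 2.11 when arrays were set to an equal median signal. Foxc1 and Foxc2 count as measured through HEC alone, so their direction follows from the filter. Sox7, a SOX factor of endothelium, differed by 7.71, the shear-responsive Klf4 by 5.68, Foxc1 by 4.79 and Nfatc1 by 4.74. From HEC to E10.5 cluster cells 12 were lower and 1 higher, with a median of -4.32, where 15.7% of all genes were lower and 43.1% higher. Notch4, an endothelial Notch receptor, gave -10.14 and was found in 1 of 28 cluster cells. Sox7 gave -9.89, Sox17, an arterial SOX factor, -7.17 and Notch1 -6.17. Sox17 was in 0 of 28 cluster cells, and Rbpj was the one higher gene, at 2.31. HSC minus HEC gave 14 lower and 0 higher, where 39.4% of all genes were lower and 14.3% higher.

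Endothelial genes of several kinds had these directions. Of the 20 pan-endothelial genes, HEC had 18 higher than EC and 0 lower (median 2.67), and 19 were lower in E10.5 cluster cells than HEC and 0 higher (median -6.25). From EC to HEC 45.9% of all genes were higher and 7.36% lower (median 0.82), and from HEC to E10.5 cluster cells 15.7% were lower and 43.1% higher (median 0.71). With an equal median signal 15 of the 20 pan-endothelial genes were higher in HEC than EC and 1 lower (median 1.70). After quantile normalization 13 were higher and 1 lower (median 1.39). Without EC cell 3, which had 2 of these 20 genes above background, the median as deposited was 1.996. Each of the 17 measured arterial genes stood higher in HEC than EC (median 4.75) and lower in E10.5 cluster cells than HEC (median -5.72). Of these 17, Hey1, Hey2, Unc5b, Bmx, Edn1 and Stmn2 count as measured through HEC alone, so the direction of those 6 follows from the filter. With an equal median signal 15 of the 17 passed 1 log2 unit in each comparison.

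Of 9 measured venous and lymphatic genes, 3 were higher in HEC than EC and 2 lower, at a median of 0.52 and with the mean near 0. Of all genes 45.9% were higher and 7.36% lower in that comparison. That median was -0.46 with equal median signals and -0.48 under quantile normalization. The higher genes included Vwf, which encodes von Willebrand factor (5.19), and Dab2, an endocytic adaptor (3.28). The lower ones were Aplnr, the apelin receptor of veins, in 6 of 7 EC and 2 of 7 HEC (-6.80), and Nrp2 (-2.79). In E10.5 cluster cells 9 of 9 were lower than in HEC, with a median of -3.48, where 15.7% of all genes were lower and 43.1% higher. With medians over cells the list median was -0.50, which is below the size for a call.

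Of 15 measured endothelial junction proteins 12 were higher in HEC than EC and 0 lower, with a median of 2.47 against 0.82 over all genes, where 45.9% were higher. The tight-junction gene Cldn5 (claudin-5) differed by 4.45, Afdn (afadin) by 3.36 and the catenin Ctnnd1 by 3.28. In E10.5 cluster cells 13 of the 15 were lower than in HEC and 1 higher, with a median of -3.50, where 15.7% of all genes were lower. Cldn5 gave -10.20, in 0 of 28 cells, and Cdh5 (VE-cadherin) -9.60, in 5 of 28. Jam2 counts as measured through HEC alone. The lists share genes with each other (Tjp1 and Sox7 among them), so their counts are not separate observations.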

How the data were processed

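The deposited values are log2 expression values for which the submitters' processing notes name GCRMA and affy as the authors' tools (version: not given in the sources used here). The method subtracts a sequence-based background, so undetected probe sets pile up at a floor. Values ran from 2.19 to 17.86, and 17.6% were above 5. Values are used as deposited. At least part of the arrays look scaled to control probe sets, since Dap 3' stood at 12.64 in 82 of 85 arrays; no source used here states that step.

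Of 45101 probe sets 34958 had 1 gene symbol in the platform annotation and were used, 932 had several and 9211 were not listed. Through gene identifiers 34754 matched RefSeq (GRCm38.p6) and 0 changed name. Each gene is represented by its probe set with the highest mean over populations weighted equally, and 10695 genes above background in at least 3 cells count as measured. Arrays correlating above 0.95 were averaged.

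No test was made, because labels name no animal or culture. The number of arrays limits the precision. Named genes are the members, for each list described up to 4 genes with the largest difference (1 or more), and the 5 genes with the highest Pearson r for members found in at least 8 cells; list genes named beyond these were chosen after their values were seen. The members and lists were chosen with earlier results of these data known. Alternatives were other scalings, probe sets, thresholds, medians over cells and cells left out. Calculations were tested on simulated data, with Python 3.11.15, numpy 2.4.6, pandas 2.3.3, scipy 1.17.1 and matplotlib 3.10.9.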

Additional observations from a re-analysis of the deposited data

Results flagged for a closer look

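Among the EC and HEC values of the connexins, 2 cells stood far from the rest of their population. EC cell 2 had Gja4 at 6.39, and its gap to the next EC was 0.977 of the whole range of the 7 cells. HEC cell 3 had Gja4 at 2.31, and its gap to the next HEC was 0.763 of the range. A gap over 0.568 of the range was marked in these groups of 7 cells. The 15 sets of values examined included list means and numbers of probe sets above background as well as connexins. How often chance would mark values split between a floor and detection was not tested. Values near a floor have little spread among themselves, so 1 detected cell stands apart easily.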

How the results depend on the processing

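Of 931 recalculated connexin differences, 895 kept their call and 36 did not. Gja4 in HEC minus EC stayed between 7.66 and 10.35 over scalings, medians and cells with both controls at the shared value, and between 8.19 and 10.24 with each cell left out. Taking medians over cells gave -0.019 for Gja5 in HEC minus EC, -0.062 in E10.5 cluster minus HEC and -0.0079 in HSC minus HEC, because fewer than 4 of 7 HEC held it. Leaving out each cell gave 1.48 (without HEC cell 7) to 2.74 for Gja5 and 0.84 to 3.36 for Gjc1 in HEC minus EC. For Gja1 the median gave 0.011 in E12.5 minus E10.5 cluster and 0.050 in HSC minus E10.5 cluster, and probe set 1415801_at, which is at the floor, gave 0.075 and 0.048 there and -0.050 in HSC minus HEC. The call for E12.5 minus E10.5 cluster was also lost on 1438945_x_at, 1438650_x_at and 1438973_x_at, on the mean of probe sets and without the cells whose markers go against their sort. The call for HSC minus E10.5 cluster was lost after quantile normalization (-0.79), on the mean of probe sets, on 1438650_x_at, 1438973_x_at and 1415801_at and with medians. Those for E10.5 cluster minus HEC and HSC minus HEC were lost on 1438973_x_at and 1415801_at. Without the cells of contrary markers Gjc1 was in 1 EC and 0 HSC, and Gja1 was in 3 HSC.

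Among list medians, HEC minus EC gave, for equal median signal, quantile normalization and the mean of probe sets in turn, 2.11, 2.09 and 2.11 for regulators and 1.49, 1.42 and 1.57 for junction proteins. Junction proteins had 1.28 with medians over cells. The arterial list gave 2.90 with the mean of probe sets and 6.56 with medians. In E10.5 cluster minus HEC, medians over cells gave -5.62 for regulators, -8.23 for arterial and -0.50 for venous and lymphatic genes. The mean of probe sets gave -3.20 for regulators. Cells with both controls at the shared value gave -4.54 for arterial and -4.70 for venous and lymphatic genes. With each cell left out those lists ran from -6.72 to -4.93 and from -4.10 to -2.53. The cause of these shifts was not tested.

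Equal median signal moved the median of all genes in HEC minus EC from 0.82 to -0.15. No paired analysis was possible because replicate numbers name single cells, not shared embryos, and no test was made. With 7 EC and 7 HEC, a share of cells is known only within wide intervals, and a value at the floor does not show that a transcript was absent.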
